A study of Homo sapiens with 6 samples.

Results

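YAP1, WWTR1, TEAD1 and 7 genes that act on or are transcribed by them were examined in 6 microarrays of the human cell line H358, which derives from a non-small cell lung cancer. The 10 genes were chosen by name: YAP1, WWTR1, TEAD1, LATS2, AMOTL2, AJUBA, CCN1, CCN2, CRIM1 and ANKRD1. All 10 were found among the 18417 genes measured, each by 1 probe set annotated to that gene alone. Both groups were H358 cells that stably carried an inserted gene and received 100 nM 4-hydroxytamoxifen (4OHT), a ligand of modified estrogen receptors, for 12 days. The 3 control arrays came from cells expressing green fluorescent protein (GFP). The other 3 came from cells expressing TwistER, a construct whose name stands for the transcription factor Twist fused to an estrogen receptor domain that 4OHT switches on. The labels call the first state before, and the second after, epithelial-mesenchymal transition (EMT), in which epithelial cells lose their junctions and become motile. TwistER cells without 4OHT were not analysed here, so activation of the construct and other differences between the lines cannot be told apart. The labels do not say whether either line is 1 clone.

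YAP1 encodes the co-activator YAP, and WWTR1 encodes its relative TAZ. Neither binds DNA by itself: in the nucleus they join TEAD factors such as TEAD1 on enhancers and promoters of genes for growth, adhesion and matrix. The Hippo kinases, which end in LATS1 and LATS2, phosphorylate YAP and TAZ and hold them in the cytoplasm, so their activity is regulated largely at the protein level, which arrays of RNA do not measure. CCN1, CCN2, ANKRD1, CRIM1, AMOTL2 and LATS2 are commonly used as transcriptional readouts of the complex, and in epithelia YAP and TAZ are restrained by cell junctions.

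TEAD factors bind the short motif GGAATG on either strand. The promoters of the textbook targets CCN2 and ANKRD1 are printed here because CCN2 rose in these cells and ANKRD1 did not pass the test. The mean of ANKRD1 lay in the lowest quartile of genes (3.51 in GFP, 3.47 in TwistER). Its lack of a call may therefore not be a lack of response, and a link between motif counts and changes was not tested. The sequences are the 250 bases before the annotated start in RefSeq's promoter table (GRCh38.p14), read 5′ to 3′ on the strand of the gene, with the TEAD motif in capitals. CCN2 lies at chr6:131951373-131951622 and ANKRD1 at chr10:90921088-90921337, both on the minus strand.
CCN2: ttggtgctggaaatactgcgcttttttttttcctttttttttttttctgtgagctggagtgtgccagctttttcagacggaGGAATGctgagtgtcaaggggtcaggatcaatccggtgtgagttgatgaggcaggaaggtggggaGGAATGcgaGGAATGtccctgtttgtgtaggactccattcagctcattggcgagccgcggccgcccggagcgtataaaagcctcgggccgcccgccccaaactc
ANKRD1: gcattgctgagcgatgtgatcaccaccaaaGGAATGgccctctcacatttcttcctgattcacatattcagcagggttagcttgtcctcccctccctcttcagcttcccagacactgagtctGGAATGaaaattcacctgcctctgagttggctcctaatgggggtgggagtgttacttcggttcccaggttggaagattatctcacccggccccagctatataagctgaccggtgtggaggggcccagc

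The CCN2 window held 3 copies of the motif, which begin 169, 104 and 95 bases before the start. The ANKRD1 window held 2, which begin 220 and 128 bases before it, and also 1 match to the AP-1 motif TGANTCA, which overlapped neither copy. Of 35116 promoter windows of this length, 11.9% held at least 1 copy of GGAATG or its complement CATTCC, 0.94% at least 2 and 0.0826% at least 3. AP-1 matches occurred in 6.57% of windows, and the CArG box of the serum response factor in 1.16%. The table held 10 windows for 7 of the 10 members, and the CArG box had no match in these. It held no window for TEAD1, CCN1 and CRIM1, so of the members that rose only CCN2 was searched. YAP1 had 1 copy of the TEAD motif, as did 1 of 2 windows each for AMOTL2 and AJUBA, and the windows of LATS2 and WWTR1 had none. A match is a string of letters and was not tested as a binding site.

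The transcripts of 4 members rose in TwistER cells: CRIM1, CCN2, CCN1 and TEAD1. Those of the 2 co-activators did not pass the test, nor did those of ANKRD1, LATS2, AMOTL2 and AJUBA. No member fell in limma at a Benjamini-Hochberg adjusted p under 0.05. At an unadjusted p under 0.05 WWTR1 was the 1 member lower, as were 2053 of all 18417 genes. Of all genes, 8.83% were called, 4.72% upward and 4.11% downward, against 4 of 10 members upward. Most members were brighter than most genes, and calls were more frequent among brighter genes. In a fit of the 9208 genes above the median level, 776 rose and 805 fell, and 4 of the 8 members kept there rose. The shares of all genes given here and below apply no such filter. The median log2 difference (TwistER minus GFP, as throughout) was 0.25 over the members and 0.01 over all genes. Groups did not overlap in 5 members, against 28.4% of all genes, with TwistER higher in 4 and lower in 1, against 13.9% and 14.5% of all genes. In these bulk cultures, fewer cells of a kind and less RNA per cell cannot be told apart.

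**Figure D1:**
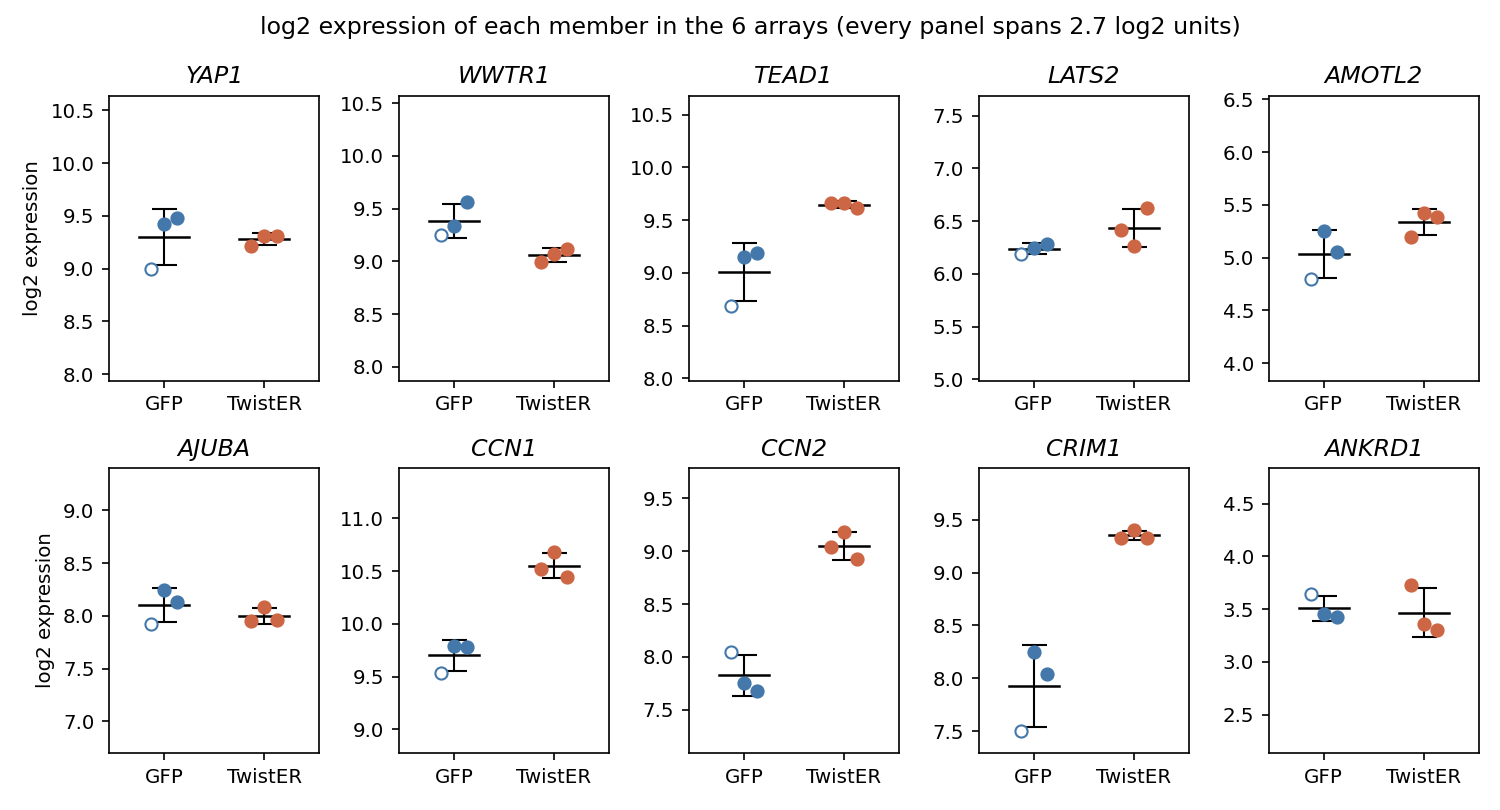
Deposited log2 expression of each member (vertical axis) in the GFP and TwistER arrays. Points are arrays, the open point is GFP replicate 1, and bars give the mean and SD of 3 arrays. All 3 TwistER points lie above all 3 GFP points for TEAD1, CCN1, CCN2 and CRIM1, and below them for WWTR1.

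GFP replicate 1 stood apart from the other arrays of its group, with r = 0.982 against each of them over all genes, where GFP replicates 2 and 3 had r = 0.996. It was the lowest GFP array for 8 of the 10 members and the highest for CCN2 and ANKRD1, and it was the lowest for 41.8% of all genes. The differences, calls and counts of calls were therefore also computed without it. Of the markers of the labelled epithelial cell type, the junction genes CDH1 and EPCAM read 9.53 to 10.38 and 11.88 to 12.39 in GFP cells. KRT7, KRT8, KRT18 and KRT19 had GFP means of 8.69 to 9.49. Other markers of the list were dimmer. NKX2-1, ELF3 and CLDN4 had GFP means of 4.56, 4.81 and 5.48, where the median over all genes was 5.46. Of 9 epithelial markers measured, 5 fell in TwistER cells, and 8 without GFP replicate 1, against 4.11% and 8.09% of all genes. The list means were 7.76 to 8.36 in GFP and 6.41 to 6.45 in TwistER.

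YAP1 did not pass the test. It read 9.00, 9.42 and 9.48 in GFP cells and 9.21, 9.31 and 9.31 in TwistER cells. All TwistER values lay inside the GFP range, between replicate 1 and the other two GFP arrays. The difference was -0.02 ± 0.14 (SE, 3 arrays per group), with a 95% interval of -0.35 to 0.31 and a limma adjusted p of 0.958. Its sign turned with a second quantile normalization (0.03) and with cyclic loess (0.05), and without GFP replicate 1 it was -0.17 ± 0.09, with an interval of -0.38 to 0.04.

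WWTR1, the gene for TAZ, was lower in every TwistER array. It read 9.25, 9.33 and 9.56 in GFP and 8.99, 9.07 and 9.12 in TwistER. The groups did not overlap, but the difference of -0.32 ± 0.12 did not pass over all genes (limma adjusted p = 0.156). Without GFP replicate 1 the difference was -0.39 ± 0.10 and passed (limma adjusted p = 0.0497). In that fit 15.1% of all genes were called, 6.97% upward and 8.09% downward, and of the members the same 4 rose and WWTR1 fell.

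TEAD1, the DNA-binding partner, rose 1.56-fold. It read 8.69, 9.15 and 9.19 in GFP cells and 9.67, 9.66 and 9.61 in TwistER cells. The 3 TwistER values, all above the GFP range, had an SD of 0.03, while the GFP values had an SD of 0.28 with replicate 1 lowest. The difference was 0.64 ± 0.15 (limma adjusted p = 0.0315), and 0.48 ± 0.09 without GFP replicate 1 (limma adjusted p = 0.0108). The call was lost without GFP replicate 2 (0.0532) or without TwistER replicate 1, 2 or 3 (0.113, 0.121 and 0.102).

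The other TEAD genes encode factors that bind the same motif, and none of them passed. TEAD2 had a difference of 0.23 ± 0.10 (limma adjusted p = 0.259). Its groups did not overlap, at 6.70 to 6.79 in GFP and 6.90 to 7.07 in TwistER. TEAD3 differed by 0.07 ± 0.13 and TEAD4 by -0.09 ± 0.10. Within arrays TEAD1 was compared with TEAD4 alone, the other TEAD gene with the lowest difference. The ratio of TEAD1 to TEAD4 within each array was higher in all 3 TwistER arrays than in any GFP array. On the log2 scale it changed by 0.72 ± 0.13. An exact 2-sided permutation test over 20 assignments of the arrays gave p = 0.1, and 0.2 when adjusted over the pairs. It was the largest shift among the 4 pairs of relatives compared. Since TEAD2 and TEAD3 had higher differences than TEAD4, the shift would be smaller with either as partner. Its rank among the pairs and the separation of the groups therefore depend in part on the choice of TEAD4. Since 3 arrays against 3 cannot give a p below 0.1, no pair could pass.

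WWTR1 over YAP1 was the other pair whose groups did not overlap. Its log2 ratio read 0.25, -0.08 and 0.08 in GFP and -0.22, -0.24 and -0.19 in TwistER, a change of -0.30 ± 0.10 (exact permutation p = 0.1, adjusted 0.2). Without GFP replicate 1 the ratio changed by -0.22. A shift in such a ratio would mean unequal change of the 2 transcripts. The permutation test could not establish this for any pair, since its p cannot fall below 0.1 here. The ratios do not show relative amounts of the 2 transcripts, since probe sets differ in brightness.

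**Figure D2:**
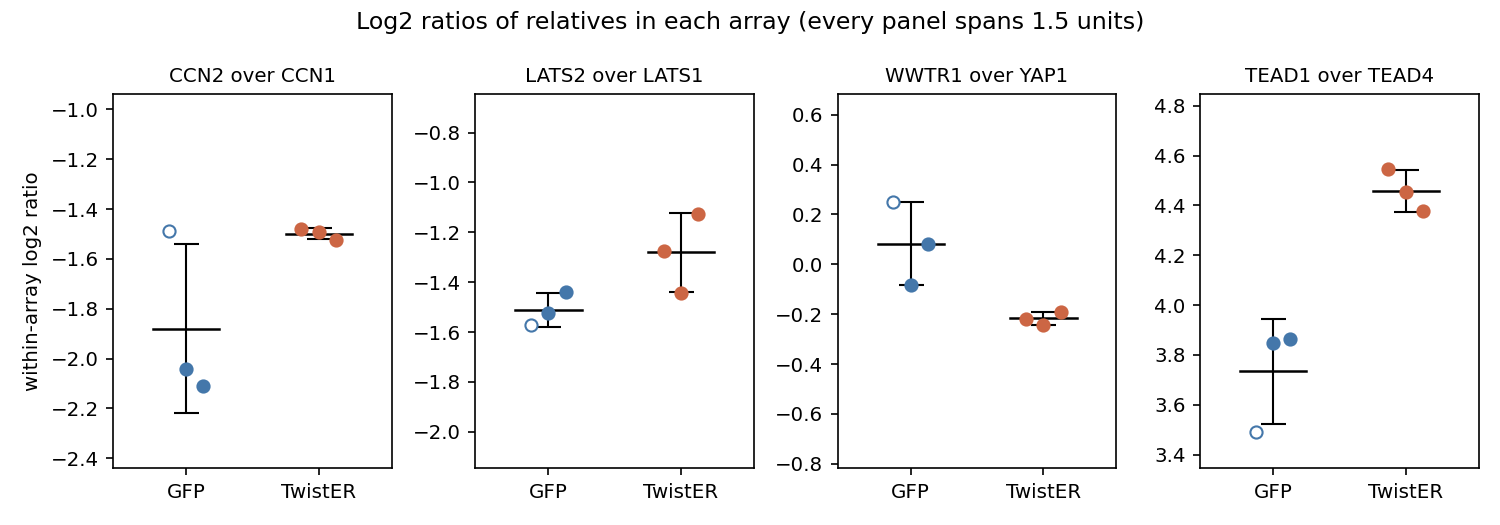
Within-array log2 ratio of 4 pairs of related genes (vertical axis) in the GFP and TwistER arrays. Points are arrays, the open point is GFP replicate 1, and bars give the mean and SD of 3 arrays. TEAD1 over TEAD4 and WWTR1 over YAP1 separate the groups, and the other two pairs overlap. The height of a ratio depends on probe brightness and has no meaning by itself.

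The matricellular genes CCN1 and CCN2 rose together. Both encode secreted proteins that bind integrins and matrix, and both respond quickly to YAP, to serum and to TGF-beta. CCN2 read 8.05, 7.75 and 7.67 in GFP and 9.04, 9.19 and 8.93 in TwistER, so every TwistER array exceeded every GFP array. The rise was 2.34-fold (1.23 ± 0.14, limma adjusted p = 0.000821).

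CCN1 read 9.54, 9.79 and 9.78 in GFP and 10.52, 10.68 and 10.45 in TwistER. No TwistER array reached down into the GFP range here either. The rise was 1.80-fold (0.85 ± 0.12, limma adjusted p = 0.00334). Both genes passed in each of the 6 fits that left out 1 array, with differences of 1.15 to 1.34 for CCN2 and 0.76 to 0.90 for CCN1.

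Whether CCN2 rose more than CCN1 was not resolved. Their log2 ratio changed by 0.38 ± 0.20 (exact permutation p = 0.3, adjusted 0.3). GFP replicate 1 read -1.49, among the TwistER values of -1.48 to -1.52, while GFP replicates 2 and 3 read -2.04 and -2.11. Without replicate 1 the ratio changed by 0.58. The other 4 genes of the CCN family did not pass, with differences from -0.55 (CCN3) to 0.16 (CCN4). CCN3 read 7.05, 7.84 and 7.73 in GFP and 7.08, 7.10 and 6.78 in TwistER. The TwistER values overlapped GFP replicate 1 alone, and without that array CCN3 fell (-0.80 ± 0.12, limma adjusted p = 0.00581).

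CRIM1 had the largest rise of the 10. It encodes a transmembrane protein with cysteine-rich repeats that binds bone morphogenetic proteins. CRIM1 read 7.50, 8.25 and 8.04 in GFP and 9.33, 9.40 and 9.33 in TwistER. GFP replicate 1 was the lowest, the SD of the GFP group was 0.39 and that of the TwistER group 0.04. The rise was 2.68-fold (1.42 ± 0.18, limma adjusted p = 0.00185), and it was 1.21 ± 0.10 without GFP replicate 1 (limma adjusted p = 0.000399). By size of difference CRIM1 ranked 123, CCN2 185, CCN1 415 and TEAD1 691 among rises of the 18417 genes.

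ANKRD1, a classical readout beside CCN1 and CCN2, did not pass. It encodes an ankyrin-repeat protein of striated muscle that is also induced in epithelial and endothelial cells when YAP is active. ANKRD1 read 3.65, 3.45 and 3.42 in GFP and 3.73, 3.36 and 3.30 in TwistER, and the groups overlapped. The difference was -0.04 ± 0.14, with a 95% interval of -0.37 to 0.28 and a limma adjusted p of 0.912. Its mean lay in the lowest quartile of genes (below 4.21), where background light can compress differences. Whether it did so here, and whether the transcript was present at all, was not tested.

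**Figure D3:**
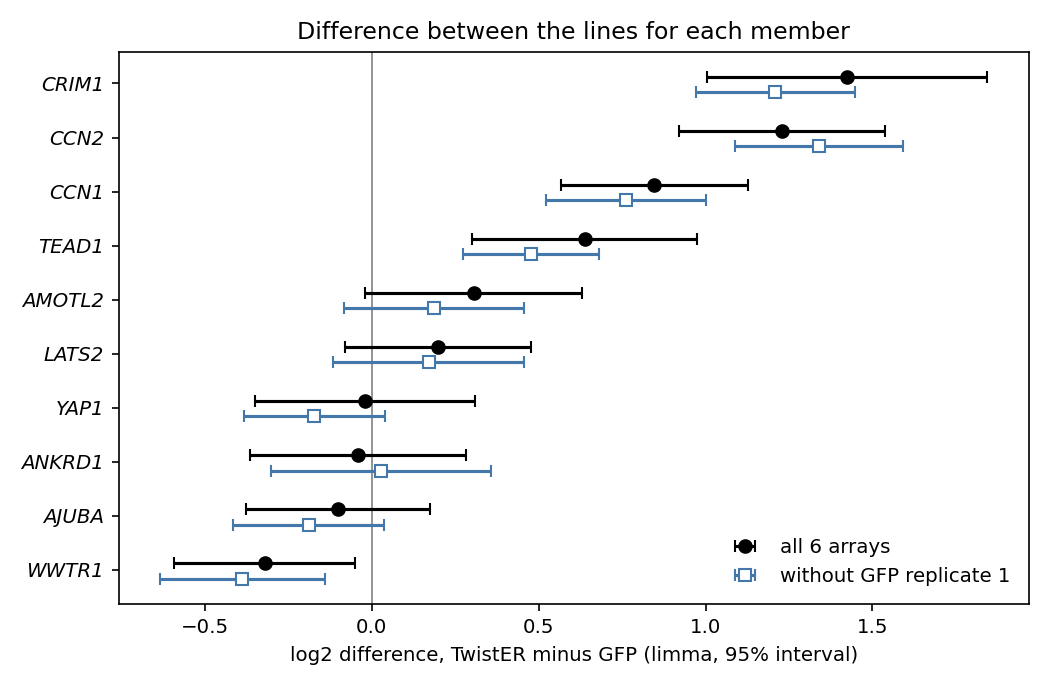
Log2 difference between TwistER and GFP (horizontal axis) for each member, with limma's 95% interval. Black circles use all 6 arrays and open squares leave out GFP replicate 1. The intervals of CRIM1, CCN2, CCN1 and TEAD1 lie above 0 in both fits, and that of WWTR1 lies below 0 in both.

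The 3 members that act on YAP or on the LATS kinases, in differing directions, did not pass. LATS2, a kinase that phosphorylates YAP and TAZ and is itself one of their targets, read 6.19, 6.25 and 6.29 in GFP and 6.42, 6.27 and 6.63 in TwistER. Of the TwistER arrays, replicates 1 and 3 lay above the GFP range and replicate 2 inside it. The difference of 0.20 ± 0.12 had an interval of -0.08 to 0.48 and a limma adjusted p of 0.420.

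AMOTL2 encodes an angiomotin-like junctional scaffold that binds YAP and is also a target. It read 4.80, 5.25 and 5.05 in GFP and 5.20, 5.43 and 5.39 in TwistER, with TwistER replicate 1 inside the GFP range. Its difference was 0.31 ± 0.14 (interval -0.02 to 0.63, limma adjusted p = 0.263). AJUBA encodes a LIM protein that binds LATS kinases at junctions and limits them. It read 7.92, 8.24 and 8.13 in GFP and 7.95, 8.09 and 7.96 in TwistER, a difference of -0.10 ± 0.12 (interval -0.38 to 0.17, limma adjusted p = 0.715).

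Replicates were more scattered in GFP than in TwistER for 8 of the 10 members, as for 64.5% of all genes. Their SD ran from 0.05 (LATS2) to 0.39 (CRIM1) in GFP and from 0.03 (TEAD1) to 0.23 (ANKRD1) in TwistER.

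Of 27 other genes of the Hippo cascade and its upstream regulators, 4 rose and 2 fell, where 4.72% and 4.11% of all genes did, and the median difference was 0.03. FAT4, a giant protocadherin that acts upstream of Hippo signalling, rose 2.44-fold (1.29 ± 0.11, limma adjusted p = 0.000225). AMOTL1, a relative of AMOTL2, rose 1.88-fold, from 5.83, 6.45 and 6.55 in GFP to 7.20, 7.14 and 7.23 in TwistER. The phosphatase gene PTPN14, whose product binds YAP and is also listed as a target, rose 1.57-fold (0.65 ± 0.12), and FRMD6, a FERM-domain activator of the cascade, rose by 0.58 ± 0.13. Of the 6 fits that left out 1 array, FAT4 passed in 6, PTPN14 in 4, AMOTL1 in 3 and FRMD6 in 2.

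The falls were in STK3, one of the kinases that activate LATS1 and LATS2, at 1.60-fold lower (-0.68 ± 0.13, limma adjusted p = 0.0137), and in WWC1, which encodes the scaffold KIBRA (-0.60 ± 0.14). With 1 array left out, STK3 kept its call in 3 of the 6 fits and WWC1 in 1. LATS1 differed by -0.03 ± 0.10 and did not pass, and neither did AMOT, LIMD1 or WTIP, with differences of -0.12 to 0.03. LATS2 over LATS1 changed by 0.23 ± 0.10 with overlapping groups (exact permutation p = 0.2, adjusted 0.267). The count of calls in the cascade list, 6 of 30 with the members included, depended on the TwistER arrays: it was 1, 2 and 2 without TwistER replicates 1, 2 and 3, fits in which the calls over all genes went from 1627 to 912, 831 and 935.

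Of 14 other nuclear partners 1 rose (JUN) and 1 fell (JUNB), a number too small to set apart from the 8.83% of all genes called. Both encode subunits of AP-1, a factor found with TEAD at many enhancers. JUN read 6.75, 6.69 and 6.78 in GFP and 7.33, 7.39 and 7.36 in TwistER (0.62 ± 0.10, limma adjusted p = 0.00578). JUNB read 6.92, 6.68 and 6.74 in GFP and 6.23, 6.05 and 6.01 in TwistER (-0.68 ± 0.12, limma adjusted p = 0.00861). The vestigial-like genes VGLL1 to VGLL4, whose products compete with YAP for TEAD or join it, did not pass, with differences from -0.30 (VGLL4, VGLL1) to 0.33 (VGLL3). The list of 17 measured had 3 calls, and 1 without TwistER replicate 2.

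Many of the genes commonly scored as YAP and TAZ output rose. The list of these core targets had 16 genes beyond the 6 members in it. Of the 16, 7 rose and 1 fell, where 4.72% and 4.11% of all genes did. In the fit of genes above the median level, 11 of 18 genes of the whole list rose and 1 fell. There 776 and 805 of all 9208 genes did. The median difference of the 16 was 0.39, and 0.01 over all genes. The secreted matrix protein gene CCDC80 rose 4.52-fold, from 8.34 to 8.41 in GFP to 10.53 to 10.58 in TwistER. AXL, a receptor tyrosine kinase gene, rose 3.40-fold (1.77 ± 0.17), ASAP1, which encodes a regulator of ARF GTPases at adhesions, 1.96-fold (0.97 ± 0.11), and RBMS3, an RNA-binding protein gene, 1.81-fold (0.86 ± 0.14). PTPN14, ARHGEF17 and TGFB2 also rose, by 0.65, 0.49 and 0.48, and FJX1, a regulator of planar polarity, fell by 0.62 on the log2 scale. These 4 calls were kept in 4, 2, 1 and 1 of the 6 fits that left out 1 array. Those of CCDC80, AXL, ASAP1 and RBMS3 were kept in all 6.

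The other 8 did not pass, with differences from -0.20 (MYOF) to 0.39 (GADD45A). MYOF, a membrane repair gene, read 9.75, 10.21 and 10.12 in GFP and 9.86, 9.82 and 9.80 in TwistER, and without GFP replicate 1 it fell (-0.34 ± 0.09, limma adjusted p = 0.0453). The cell-surface enzyme gene NT5E differed by 0.17 ± 0.11 and the coagulation receptor gene F3 by 0.09 ± 0.11. The kinase gene NUAK2 differed by 0.10 ± 0.10 and the growth factor-binding protein gene IGFBP3 by 0.08 ± 0.11. Over the list of 22 with the members, 11 genes were called (10 rises and 1 fall), 13 without GFP replicate 1 (11 rises and 2 falls), and 7 without TwistER replicate 1 or 2. All of those 7 rose, and FJX1 was not among them.

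In a broader list of reported targets, 41 measured genes were not members. Of these 6 rose and 0 fell in limma, where 4.72% and 4.11% of all genes did. The median difference of the 41 was 0.11. At an unadjusted limma p under 0.05, 13 of them were higher and 2 lower, as were 1916 and 2053 of all 18417 genes. DAB2, an endocytic adaptor gene, rose 7.28-fold, from 6.50, 6.65 and 6.78 in GFP to 9.47, 9.59 and 9.47 in TwistER. ITGB5, an integrin subunit gene, rose 2.04-fold, a call kept in 2 of the 6 fits that left out 1 array, and DDAH1, a metabolic enzyme gene, 1.98-fold. Cell cycle genes of this list did not pass: BIRC5 differed by 0.02 ± 0.14, TOP2A by -0.07 ± 0.12 and ECT2 by -0.37 ± 0.15 (limma adjusted p = 0.193). Both target lists share 7 genes, so their counts are not independent. Of the 6 rises here, those of ASAP1, AXL and TGFB2 were already counted among the core targets. Only DAB2, DDAH1 and ITGB5 are new to this list.

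**Figure D4:**
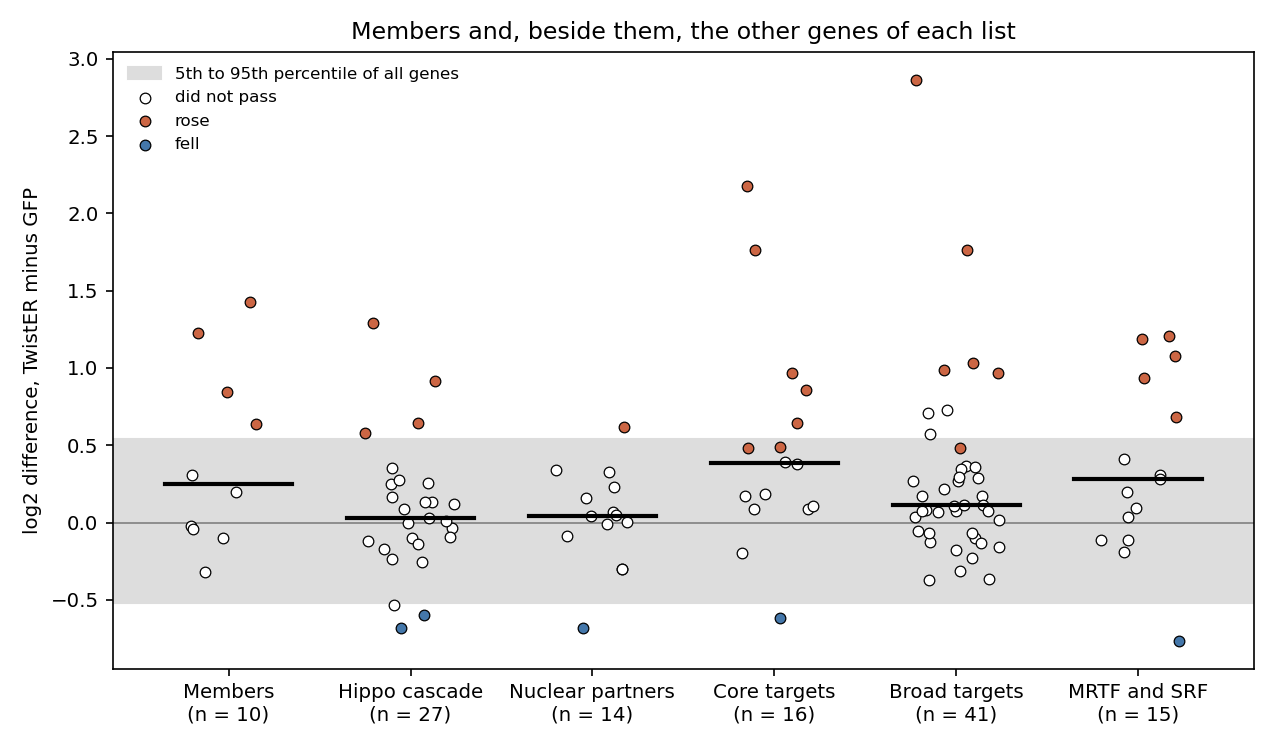
Log2 difference between TwistER and GFP (vertical axis) for the 10 members and for the other genes of each list, with members left out of the lists. Filled points passed at an adjusted p under 0.05 in limma, thick lines are medians, and the grey band spans the 5th to 95th percentile of all genes (-0.52 to 0.54). The median of the core targets, 0.39, is the highest of the lists.

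CCN1, CCN2 and ANKRD1 also answer to actin through the co-activator MRTF and the factor SRF. Of 15 measured genes of that list, 5 rose and 1 fell, where 4.72% and 4.11% of all genes did. The median difference of the list was 0.28. The actin-binding gene CALD1 rose 2.31-fold (1.21 ± 0.14), the myosin light chain gene MYL9 2.28-fold (1.19 ± 0.12), smooth muscle actin (ACTA2) 2.11-fold (1.07 ± 0.16), the tropomyosin genes TPM2 1.91-fold and TPM1 by 0.68 ± 0.12 on the log2 scale. FHL2, a LIM-domain cofactor gene, fell by 0.76 ± 0.11. The other 9 did not pass, with differences from -0.19 (TAGLN) to 0.41 (ACTB). Among them SRF itself differed by 0.03 ± 0.11 and VCL, the vinculin gene, by 0.31 ± 0.13.

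Fibroblasts express CCN1, CCN2 and CRIM1 as well, and a culture could hold other cells. Of 10 fibroblast markers, 3 rose: COL3A1 (2.13 ± 0.15), PDGFRA (1.01 ± 0.13) and COL1A1 (0.54 ± 0.13), the last with its call kept in 1 of the 6 fits that left out 1 array. LUM fell (-1.63 ± 0.18) from 7.32 to 8.01 in GFP cells. The other 6 did not pass, with differences from -0.25 (FAP) to 0.29 (POSTN), where 4.72% of all genes rose and 4.11% fell. The list had means of 4.37 to 4.51 in GFP and 4.64 to 4.66 in TwistER and summed log2 levels of 43.7 to 45.1 and 46.4 to 46.6. No marker can read 0 on this scale. In the lowest quartile of genes by mean level were 3 of the 10, DCN, POSTN and FAP, which read 2.22 to 2.48, 2.04 to 3.06 and 3.22 to 3.79. Among 5 endothelial markers KDR (1.79 ± 0.12) and PECAM1 (0.61 ± 0.12) rose, the latter with its call kept in 3 of the 6 fits that left out 1 array, with summed levels of 22.1 to 22.4 in GFP and 24.66 to 24.99 in TwistER, and VWF, CDH5 and CLDN5 did not pass, with differences of 0.05, -0.06 and 0.20. Of 5 leukocyte markers 0 were called in limma, also at an unadjusted p under 0.05, with summed levels of 18.7 to 18.9 and 19.5 to 20.3, and 1 (PTPRC) rose without GFP replicate 1. The labels name H358 cells alone, and in bulk cultures marker changes within them and the presence of other cells cannot be told apart. The part of other cells in the results for the members was not tested.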

How the data were processed

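RNA of 6 H358 cultures (3 GFP, 3 TwistER), labelled with biotin, was read on an Affymetrix array, per the labels' protocols. The authors deposited log2 values, 1 per probe set and array, and the submitters' processing notes name RMA as their method. It removes background, gives all arrays the same distribution and combines probes, so a shift of all transcripts would not show. Its version is not given in the sources used here. Of 33297 probe sets, 19460 had 1 gene symbol in the platform annotation. A gene took its brightest probe set over all arrays, which gave 18417 genes, and no filter on brightness was applied. The test was the moderated 2-sided test of limma (version 3.58.1, R 4.3.3) without covariates, with Benjamini-Hochberg adjustment over all genes and a threshold of 0.05. The script was tested on simulated data. The titles say biological replicates and no more, so p-values reflect only how far these cultures differed among themselves, and their number limits precision. No batch is given. The members, lists and tests were chosen with earlier results of these data known. The lists came from general knowledge. Besides members, the text names their close relatives, up to 4 called genes of each list with the largest differences, and, as the rule allows, list members where a count was 5 or fewer (FRMD6, WWC1, FJX1 and FHL2 among them). Other genes were named after their values were seen. These were ARHGEF17, TGFB2, MYOF, GADD45A, TPM1, SRF, VCL, TAGLN, ACTB, NT5E, F3, NUAK2, IGFBP3, BIRC5, TOP2A and ECT2. The epithelial markers NKX2-1, ELF3, CLDN4, KRT7, KRT8, KRT18 and KRT19 were also named in this way. Alternatives were other normalizations, brightness filters, averaged probe sets, a trended robust variance, the replicate number as a block, other thresholds and each array left out.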

Additional observations from a re-analysis of the deposited data

How the results depend on the processing

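The number of members called was 4 under every other normalization, filter, probe set rule and variance model tried and with the replicate number as a block, 3 at an adjusted p under 0.01, and 3 to 5 with 1 array left out. CCN1, CCN2 and CRIM1 passed in limma in each of these fits. YAP1 changed sign with a second quantile normalization (0.026) and cyclic loess (0.053), and ranged from -0.171 to 0.069 with 1 array left out. ANKRD1 ranged from -0.174 to 0.0397 there, on both sides of 0, and was removed by both brightness filters. AMOTL2 was removed by the filter at the median. The count over all genes was 1627, and 807 at an adjusted p under 0.01, and 831 to 2773 with 1 array left out. Calls ranged from 1 to 6 in the Hippo cascade list, 1 to 4 among nuclear partners, 7 to 13 in the core targets and 7 to 12 in the broader targets with 1 array left out. The 4 ratios of relatives kept their direction under each normalization and each array left out. Same-numbered arrays of the groups deviated together at r = 0.139, 0.0154 and 0.157, so the numbers were not taken to pair them, and 2 of 3 GFP arrays correlated best with their own number. With the replicate block 1592 genes were called. Each member had 1 probe set, so no other could be tried.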
